A study of Mus musculus with 9 samples.

Results

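Megalin (Lrp2) and cubilin (Cubn) are the endocytic receptors of the proximal tubule, and the genes described here are these receptors with the proteins that fold, anchor, couple and acidify them. The 7 genes (Lrp2, Cubn, Amn, Dab2, Clcn5, Folr1 and Lrpap1) are a list chosen with earlier results of these data known. Each had 1 row with a single gene symbol among the 22180 genes of the value table. All 7 were measured and none was lost to a filter. They are followed across the 9 kidney samples of a bile duct ligation study in mice.

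Plasma proteins small enough to pass the glomerular filter are taken back from the urine by the brush border of the proximal tubule. Megalin, a giant member of the LDL receptor family, spans the membrane, whereas cubilin has no membrane span of its own and is carried to the surface by amnionless (Amn). The receptors bind albumin, vitamin carriers and many other ligands, enter through clathrin-coated pits with the help of the adaptor Dab2, release their cargo in endosomes acidified by proton pumps with the chloride-proton exchanger ClC-5 (Clcn5), and return to the surface. Inherited loss of megalin, cubilin, amnionless or ClC-5 leads to loss of protein in the urine.

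Total RNA from whole mouse kidney was measured on whole-transcript arrays in 3 groups of 3 samples. Sham mice had been operated on 3 weeks earlier without ligation. In the second group, called CBDL, the common bile duct had been ligated for 3 weeks, which stops the flow of bile from the liver. The third, called norUDCA-fed CBDL, had norursodeoxycholic acid (norUDCA), a side-chain-shortened relative of ursodeoxycholic acid, in its feed for 5 days and then 3 weeks of ligation. Strain, age and sex are not given in the labels used here, no sham group fed norUDCA is among the samples, and whether feeding went on after the operation is not stated. Arrays carry their label's number: sham has sham_158, sham_159 and sham_160, ligation alone has CBDL_164, CBDL_165 and CBDL_170, and ligation after norUDCA has norUDCA_CBDL_172, norUDCA_CBDL_175 and norUDCA_CBDL_179. Values of a group are given in this order. Since nothing in the labels tells whether the 3 samples of a group are 3 separate mice, a p-value here covers the spread among these samples, which may be technical.

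Values are log2 signals, so a difference of 1 is a factor of 2, and they are compared between groups for the same gene. A value after ± is the SD over the 3 arrays of a group (n = 3). The array medians lay between 5.7 and 5.79. The second principal component over all genes (13% of the variance) set 2 arrays apart, sham_159 (-34.5) and CBDL_165 (-22.9), with the remaining 7 at 3.4 to 12. The kidney markers were high as labelled, with the phosphate transporter gene Slc34a1 at 13.32 to 13.35 and uromodulin (Umod), made by the thick ascending limb, at 12.47 to 12.55 in sham. A gene is called, and is said to have risen or fallen, when its Benjamini-Hochberg adjusted p in limma over all 22180 genes was under 0.05. The number of arrays limits the precision: the median standard error (SE) of a difference was 0.14, and p = 0.1 is the lowest value that an exact two-sided permutation test can give with 3 arrays in each group.

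The start regions of the receptor genes Lrp2 and Cubn and of the cubilin anchor Amn are shown. RefSeq (GRCm38.p6) gave a window for 6 of the 7 genes, all but Folr1. Each window has 300 bases, with 250 before and 50 after the annotated start. Capitals mark every match on either strand to 5 motifs: the HNF4 element CAAAGTCCA, the PPAR-RXR repeat, the E-box CACGTG, the GC box GGGCGG and the TATA box TATAAA.
Lrp2, chr2:69585980-69586279, minus strand: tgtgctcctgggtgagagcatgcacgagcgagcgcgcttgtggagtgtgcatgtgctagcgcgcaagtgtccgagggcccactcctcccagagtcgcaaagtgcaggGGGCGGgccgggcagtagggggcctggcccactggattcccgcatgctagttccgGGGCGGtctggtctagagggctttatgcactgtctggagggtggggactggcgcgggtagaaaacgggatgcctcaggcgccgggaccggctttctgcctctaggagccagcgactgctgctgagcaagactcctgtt
Cubn, chr2:13491827-13492126, minus strand: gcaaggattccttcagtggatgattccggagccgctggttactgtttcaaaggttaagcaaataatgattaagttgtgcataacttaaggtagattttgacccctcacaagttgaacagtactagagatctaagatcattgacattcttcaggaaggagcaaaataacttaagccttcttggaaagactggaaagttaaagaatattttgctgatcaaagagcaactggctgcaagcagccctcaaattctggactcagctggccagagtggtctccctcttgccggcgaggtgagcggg
Amn, chr12:111270846-111271145, plus strand: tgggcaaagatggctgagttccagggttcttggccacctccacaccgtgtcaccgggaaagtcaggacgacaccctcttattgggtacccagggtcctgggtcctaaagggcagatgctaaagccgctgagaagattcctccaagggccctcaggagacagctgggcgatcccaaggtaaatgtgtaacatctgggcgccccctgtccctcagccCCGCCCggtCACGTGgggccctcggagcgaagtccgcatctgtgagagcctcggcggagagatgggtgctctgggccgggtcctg

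The Lrp2 window had 65.0% G and C and 2 GC boxes, and the Cubn window had 44.3% G and C, with a median of 52.7% over the 32851 windows of the table. Cubn held none of the 5 motifs. Amn, at 62.3% G and C, held an E-box (7.15% of all windows) with its first base at -26 from the start, next to a GC box (35.7% of all windows) on the other strand at -35. The HNF4 element (0.475% of all windows) and the PPAR-RXR repeat (0.0396%) were not in these 3 windows. The window of Lrpap1 held 5 GC boxes. Dab2 and Clcn5 have 2 annotated windows each, and the motifs found there were a GC box in 1 window of Clcn5 and a TATA box (13.6% of all windows) in the other. A match describes letters only, and the array does not say which start was used.

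The comparison of CBDL with sham asks what bile duct ligation does to kidney transcripts. All 7 genes fell, by between 0.33 and 1.5 on the log2 scale with a median of -1.03, and for each of them every CBDL array lay below every sham array. Of all genes 21.8% were called, 11.5% lower and 10.3% higher, and 20.0% had all CBDL arrays below all sham arrays, with a median difference over all genes of -0.06. The deepest falls were those of the cubilin anchor Amn, megalin, the megalin chaperone Lrpap1 and cubilin. Those of Folr1, Clcn5 and Dab2 were smaller. The size of the falls depended on the normalization. When the arrays were quantile-normalized once more, the median of the 7 genes was -0.79, that of all genes was -0.02, and 6 of the 7 were called.

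**Figure D1:**
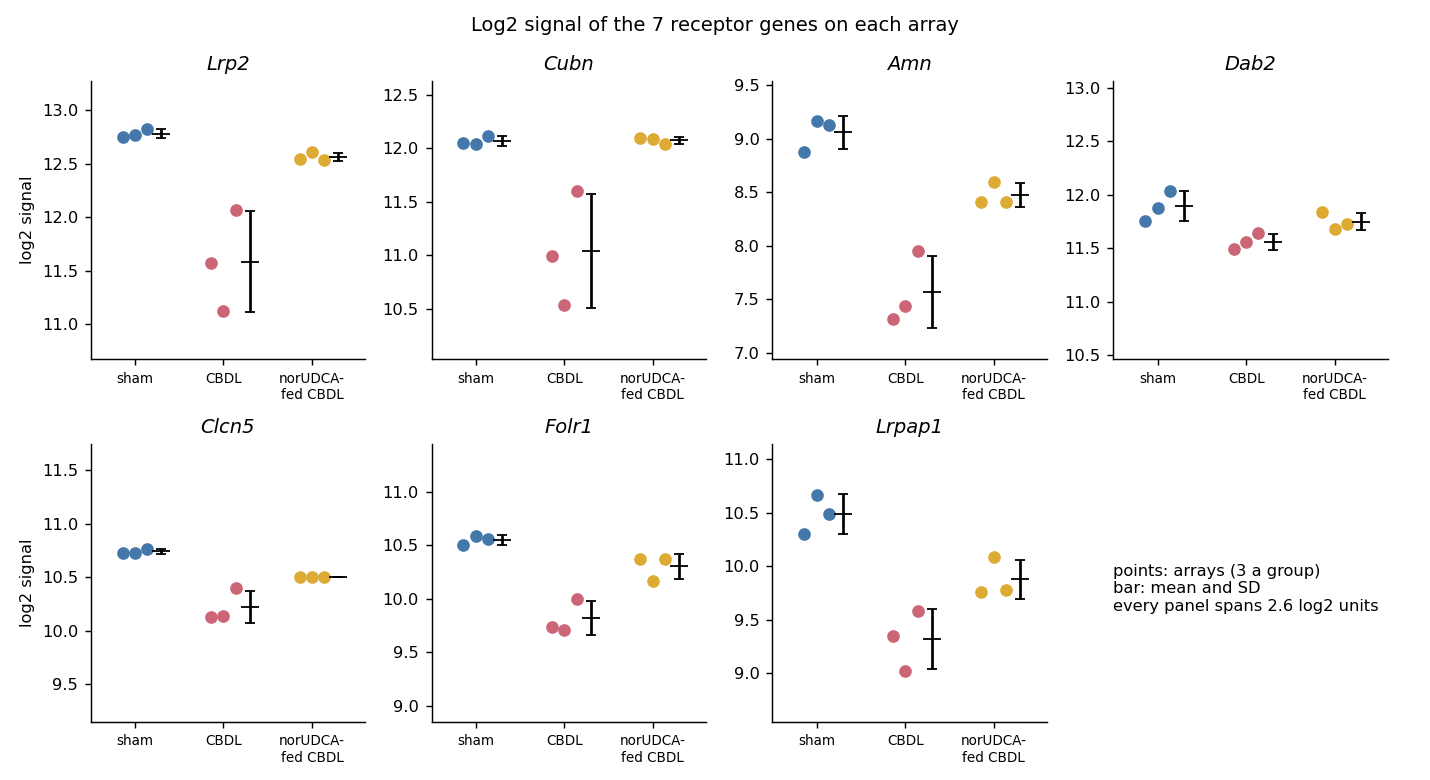
Log2 signal (vertical axis, 2.6 units in every panel) of each of the 7 genes on the 9 arrays by group, with points for arrays and bars for the mean and SD of 3 arrays. CBDL arrays lie below sham arrays in every panel, and Cubn in norUDCA-fed CBDL (12.08) lies at its sham level (12.07).

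Megalin signal was 12.75, 12.77 and 12.83 on the sham arrays, 11.57, 11.12 and 12.07 on CBDL_164, CBDL_165 and CBDL_170, and 12.55, 12.61 and 12.54 on the norUDCA-fed arrays. The sham and norUDCA-fed arrays were tight, with an SD of 0.04 each, and the CBDL arrays were spread (SD 0.47), all of them below both other groups. Lrp2 fell by 1.20 after ligation (SE 0.19, 95% interval -1.63 to -0.76, limma adjusted p = 0.00168), to 43.6% of the sham level. In bulk tissue, fewer cells of a type and less RNA per cell cannot be told apart, which holds for every gene here.

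Cubilin followed the same course. Its signal was 12.05, 12.04 and 12.12 in sham, 10.99, 10.54 and 11.60 in CBDL and 12.10, 12.09 and 12.04 on the norUDCA-fed arrays. CBDL stood below both other groups, which overlapped each other. Cubn fell by 1.03 after ligation (SE 0.21, 95% interval -1.51 to -0.55, limma adjusted p = 0.00682), to 49.0% of sham, and its SD was 0.53 in CBDL against 0.04 in sham and 0.03 in norUDCA-fed CBDL.

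Amnionless is the small transmembrane partner without which cubilin does not reach the surface. Its signal was 8.88, 9.17 and 9.13 in sham, 7.31, 7.44 and 7.95 in CBDL and 8.41, 8.60 and 8.41 on the norUDCA-fed arrays, so that the 3 groups did not overlap and norUDCA-fed CBDL lay between the others. Amn fell by 1.5 after ligation (SE 0.17, 95% interval -1.87 to -1.13, limma adjusted p = 0.000211), to 35.5% of sham.

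Folr1 encodes a folate receptor anchored to the membrane by a lipid, which in the proximal tubule returns filtered folate. It read 10.50, 10.59 and 10.56 in sham, 9.74, 9.71 and 10 in CBDL and 10.37, 10.17 and 10.37 on the norUDCA-fed arrays, again in 3 groups that did not overlap. Folr1 fell by 0.74 (SE 0.11, limma adjusted p = 0.00107), to 60% of sham.

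Dab2, the adaptor that binds the tail of megalin and links it to clathrin, had the smallest difference. Its signal was 11.76, 11.88 and 12.04 in sham, 11.49, 11.56 and 11.64 in CBDL and 11.84, 11.68 and 11.73 on the norUDCA-fed arrays. The CBDL arrays lay just below both other groups, which overlapped. Dab2 fell by 0.33 (SE 0.10, 95% interval -0.56 to -0.10, limma adjusted p = 0.0475), to 79.6% of sham. That call ended without any 1 of 8 arrays, each but sham_158 (adjusted p 0.0595 to 0.145), and the difference was -0.06 (adjusted p = 0.728) when the arrays were quantile-normalized once more. Dab2 is also made by macrophages, and the 15 macrophage markers all rose after ligation. Their summed log2 signal was 11.06 to 11.50 in sham, 12.78 to 13.68 in CBDL and 12.04 to 12.17 in norUDCA-fed CBDL. On the CBDL arrays that sum was 13.54, 13.68 and 12.78, lowest on CBDL_170. The part of macrophages in the Dab2 signal was not tested.

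Clcn5 read 10.73, 10.73 and 10.77 in sham, 10.13, 10.14 and 10.40 in CBDL and 10.50 on each of the norUDCA-fed arrays. The groups did not overlap. Clcn5 fell by 0.52 (SE 0.10, limma adjusted p = 0.00421), to 69.6% of sham. Rab38 at 7.62 and Clcn3 at 8.19, described below, also read the same on the norUDCA-fed arrays to the decimals given. How many of all genes do so was not counted.

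Lrpap1, also called RAP, is a chaperone of the endoplasmic reticulum that keeps megalin and its relatives from binding ligands before they reach the surface. Its signal was 10.30, 10.67 and 10.49 in sham, 9.35, 9.02 and 9.58 in CBDL and 9.76, 10.09 and 9.78 on the norUDCA-fed arrays, with no overlap between any pair of groups. Lrpap1 fell by 1.17 (SE 0.16, limma adjusted p = 0.000749), to 44.5% of sham.

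Among the 3 CBDL arrays the genes kept a common order in part. CBDL_170 had the highest signal for 7 of 7 genes. It also lay nearest to sham on the first principal component over all genes (58.3% of the variance). Its score there was 26.1, against 40.6 on CBDL_164 and 57.0 on CBDL_165. The share of all genes with this order was not counted. The lowest signal was on CBDL_165 for 4 of the 7 genes (Lrp2, Cubn, Folr1 and Lrpap1) and on CBDL_164 for the other 3. The mean of 21 proximal tubule markers outside the receptor list ran in the same direction, at 10.31 on CBDL_164, 9.79 on CBDL_165 and 10.80 on CBDL_170.

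The comparison of norUDCA-fed CBDL with CBDL asks whether kidneys of prefed mice differ after ligation. All 7 genes were higher on every norUDCA-fed array than on any CBDL array, against 11.6% of all genes, and 4 of them rose: Cubn, Lrp2, Amn and Folr1. Of all genes 6.80% were called in this comparison, 3.61% higher and 3.20% lower. The median difference of the 7 genes was 0.56, and that of all genes was 0. Of the 15 macrophage markers 11 fell in the same comparison (median -0.94), and their part in these values was not tested.

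Cubn rose by 1.04 (SE 0.21, 95% interval 0.56 to 1.52, limma adjusted p = 0.0214) and Lrp2 by 0.98 (SE 0.19, 95% interval 0.55 to 1.42, limma adjusted p = 0.0181), 205% and 198% of the CBDL level. Amn rose by 0.91 (SE 0.17, limma adjusted p = 0.0145) and Folr1 by 0.49 (SE 0.11, limma adjusted p = 0.0289). Lrpap1 differed by 0.56 (SE 0.16, adjusted p = 0.0765), Clcn5 by 0.28 (SE 0.10, adjusted p = 0.145) and Dab2 by 0.19 (SE 0.10, adjusted p = 0.389), which did not pass. These calls were close to the threshold. The count of 4 became 0 without CBDL_164 or norUDCA_CBDL_175, 1 without norUDCA_CBDL_172 or norUDCA_CBDL_179, 2 without CBDL_165 and 6 without CBDL_170, and 1 without the pair sham_159 and CBDL_165. With unmoderated variances it was 0, and with the 6 arrays of this comparison alone it was 1. The differences themselves kept their sign, between 0.75 and 1.23 for Lrp2 and between 0.78 and 1.32 for Cubn when 1 array was left out.

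The comparison of norUDCA-fed CBDL with sham asks how far ligated kidneys of prefed mice still differ from sham. limma called 0 of the 7 genes, where 3.18% of all genes were called, 1.37% lower and 1.82% higher. At an unadjusted p under 0.05 the count was 4 (Amn, Lrpap1, Clcn5 and Folr1), against 16.3% of all genes. Cubn differed by 0.01 with a 95% interval of -0.47 to 0.49 and Lrp2 by -0.21 with one of -0.65 to 0.22. The limma intervals and calls use a variance pooled over all groups, which includes the CBDL arrays not compared here. The SD of Cubn was 0.53 in CBDL, 0.04 in sham and 0.03 in norUDCA-fed CBDL, and that of Lrp2 was 0.47, 0.04 and 0.04. The width of these intervals is thus not the spread of the groups compared. With only the 6 arrays compared, 1 of the 7 genes was called. Amn differed by -0.59 (95% interval -0.96 to -0.22, limma adjusted p = 0.0998) and Lrpap1 by -0.61 (95% interval -0.98 to -0.25, limma adjusted p = 0.0824). For Lrp2, Amn, Clcn5, Folr1 and Lrpap1 every norUDCA-fed array still lay below every sham array, as it did for 13.5% of all genes. The 2 genes that overlapped with sham were Cubn and Dab2. The call of Amn appeared without CBDL_170 (adjusted p = 0.03) and that of Lrpap1 without CBDL_165 (adjusted p = 0.0484). The 3 comparisons share arrays, so their values stand side by side and are not independent.

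**Figure D2:**
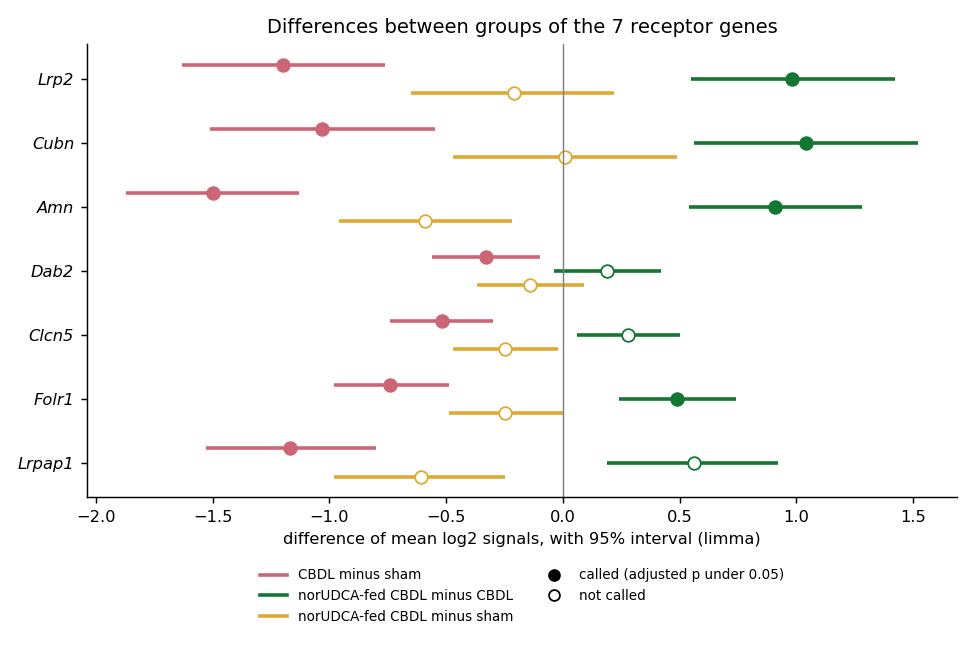
Difference of mean log2 signals (horizontal axis) of the 7 genes in the 3 comparisons, with 95% intervals from limma. Their width rests on a variance pooled over all groups. Filled points are called and open points are not. All 7 are called in CBDL minus sham, 4 in norUDCA-fed CBDL minus CBDL and 0 in norUDCA-fed CBDL minus sham.

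Differences within an array show which genes moved unequally. Cubn minus Lrp2 was -0.71 ± 0.01 in sham, -0.54 ± 0.07 in CBDL and -0.49 ± 0.04 on the norUDCA-fed arrays, so both ligated groups lay above sham with no overlap. Amn minus Cubn was -3.17, -2.87 and -2.98 in sham and -3.69, -3.50 and -3.63 in norUDCA-fed CBDL. All norUDCA-fed arrays were below sham, while the CBDL arrays, at -3.68, -3.10 and -3.65, overlapped both. Lrpap1 minus Lrp2 overlapped between sham (-2.30 ± 0.18) and CBDL (-2.27 ± 0.20) and was lower in norUDCA-fed CBDL (-2.70 ± 0.15), where all 3 arrays lay below the others. Dab2 minus Lrp2 went from -0.89 ± 0.10 in sham to -0.02 ± 0.44 in CBDL and -0.82 ± 0.11 on the norUDCA-fed arrays. Clcn5 and Folr1 also gained on Lrp2 in CBDL with no overlap with sham. Each contrast between groups that do not overlap has an exact two-sided permutation p = 0.1, the smallest that 3 against 3 arrays can give, so none of these differences can pass a threshold of 0.05.

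Other transcripts of the proximal tubule fell beside the receptor genes. Of 21 measured proximal tubule markers, none of them among the 7 genes, 20 fell and 1 was not called after ligation (median -1.54), 15 rose in norUDCA-fed CBDL against CBDL (median 1.05) and 2 were lower in norUDCA-fed CBDL than in sham (median -0.34). Their mean log2 signal was 11.77 ± 0.04 in sham, 10.30 ± 0.51 in CBDL and 11.32 ± 0.06 on the norUDCA-fed arrays. Slc34a1, the main phosphate transporter, fell by 0.99 and Slc5a2, the glucose transporter of the early proximal tubule, by 1.91. Slc34a3, another phosphate transporter, fell by 2.82. The part of fewer or altered proximal cells in the receptor values was not tested.

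Measured against the marker mean of the same array, Lrp2 stood at 1.02, 0.99 and 1.02 in sham, 1.26, 1.33 and 1.27 in CBDL and 1.29, 1.23 and 1.23 on the norUDCA-fed arrays. The spread among the CBDL arrays, 0.47 (SD) in the Lrp2 signal itself, was 0.04 on this scale. Cubn stood at 0.30 ± 0.03 in sham, 0.74 ± 0.06 in CBDL and 0.76 ± 0.07 on the norUDCA-fed arrays. For both receptors the ligated groups lay above sham and overlapped each other. The size of this gap depends on the markers averaged, each with equal weight. After ligation the differences of the 21 markers ran from -2.82 to -0.26, against -1.20 for Lrp2 and -1.03 for Cubn. That of Slc34a1 alone was -0.99. Amn stayed within its spread, at -2.71 ± 0.13, -2.73 ± 0.34 and -2.85 ± 0.06 in the same order. Dab2 went from 0.12 ± 0.10 to 1.26 ± 0.47 and 0.43 ± 0.14, and Clcn5 from -1.03 ± 0.03 to -0.08 ± 0.39 and -0.82 ± 0.06.

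**Figure D3:**
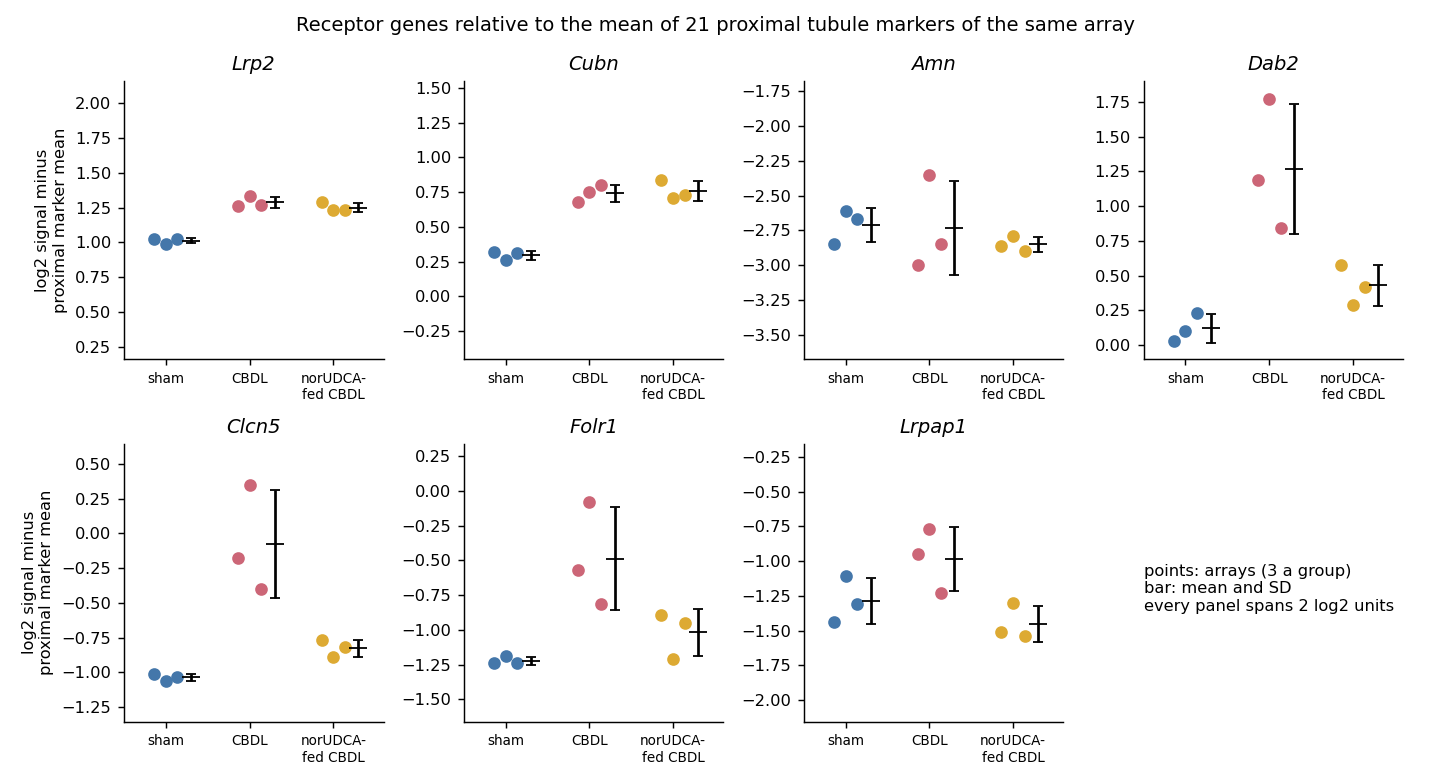
Log2 signal of each of the 7 genes minus the mean log2 signal of 21 proximal tubule markers on the same array (vertical axis, 2 units in every panel), with points for arrays and bars for the mean and SD. Lrp2 and Cubn are tight within each group and higher in both ligated groups than in sham, while Dab2, Clcn5 and Folr1 are highest in CBDL.

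The genes most like each receptor were found as those with the smallest root mean square distance over the 9 arrays, after each gene was centred on its own mean. For Lrp2 the nearest genes were Acad11 at 0.074, Slc13a3 at 0.0756, Aldh9a1 at 0.0836, Papss2 at 0.0898 and Dao at 0.091, where the median over all other genes was 0.58. Slc13a3 encodes a dicarboxylate transporter and is 1 of the 21 proximal markers, Acad11 and Aldh9a1 encode dehydrogenases, Papss2 makes the activated form of sulfate, and Dao encodes D-amino acid oxidase. Cubn ranked 8 at 0.101, ahead of Amn at 257, Lrpap1 at 314, Folr1 at 507, Clcn5 at 1230 and Dab2 at 2752.

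The nearest genes to Cubn were Slc13a3 at 0.0638, Apob, which encodes a lipoprotein, at 0.0764, Gstk1, a glutathione transferase gene, at 0.0766, the oxoglutarate receptor gene Oxgr1 at 0.0913 and Papss2 at 0.095, with Lrp2 at rank 6. Slc13a3 itself read 11.97, 12.02 and 12.07 in sham, 10.93, 10.41 and 11.35 in CBDL and 11.98, 12.03 and 11.96 on the norUDCA-fed arrays. Around Dab2 lay Ppp1r21, Tasor, Rimkla, Pcmt1 and Aars2 at 0.0521 to 0.0605, where the median over all other genes was 0.234. The nearest of the 7 genes to Dab2 was Clcn5 at rank 444, with Lrp2 at 19829. The signals were centred and not scaled, so this distance also grows with the size of a change. Dab2 and Lrp2 moved in the same direction after ligation, by -0.33 and -1.2. These ranks describe 9 arrays that share their groups.

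**Figure D4:**
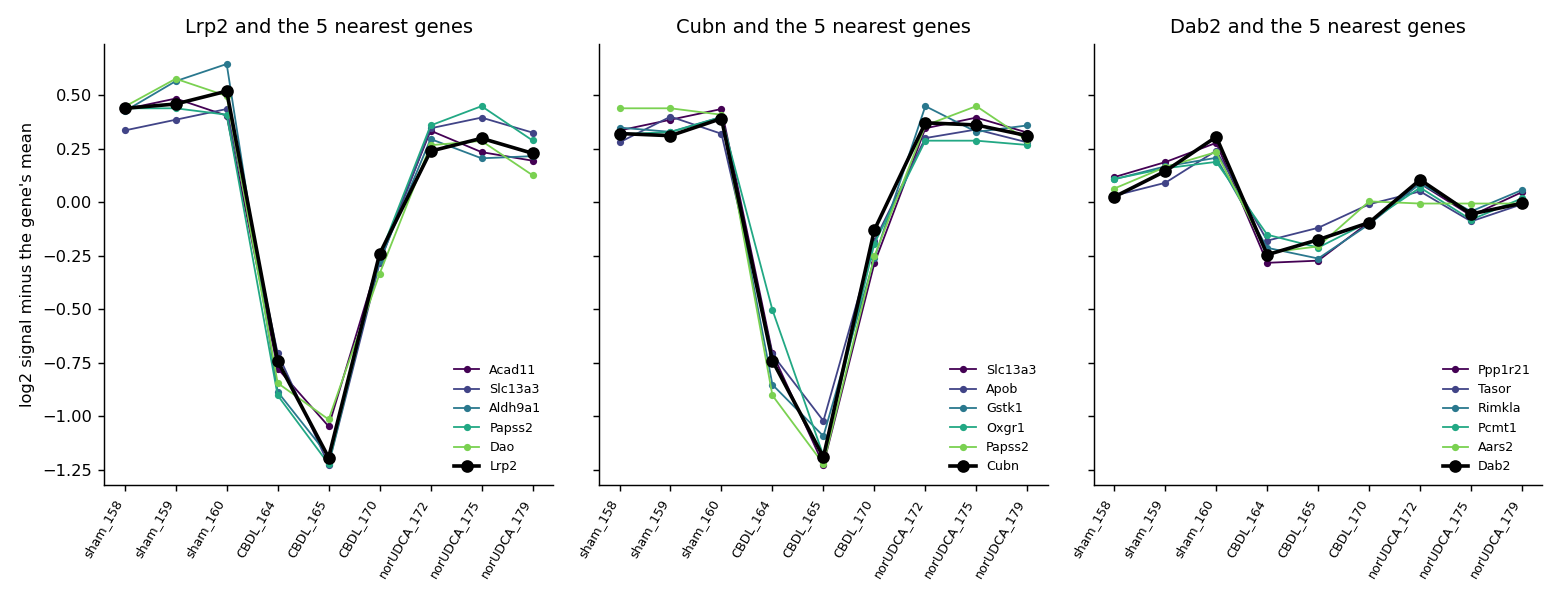
Log2 signal minus the gene's own mean (vertical axis) on the 9 arrays for Lrp2, Cubn and Dab2 (black) and the 5 genes nearest to each, with lines that only join the values of 1 gene. Lrp2 and Cubn drop on the CBDL arrays, most on CBDL_165, while the Dab2 signals (11.49 to 12.04) lie close together.

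A further 7 lists cover the wider machinery, with medians from -0.53 to 0.09 after ligation. Of all genes 11.5% were called lower and 10.3% higher after ligation, and 3.20% lower and 3.61% higher in norUDCA-fed CBDL against CBDL. In the brush border scaffold, which shapes the microvilli, 8 of 13 measured genes fell and 0 rose after ligation (median -0.53). Cdhr2, a cadherin that links microvilli, fell by 1.43 (limma adjusted p = 0.000796), the actin bundler Vil1 by 1.26 (limma adjusted p = 0.000375), the tip-link scaffold Ush1c by 0.88 (limma adjusted p = 0.000217) and the motor gene Myo7b by 0.86 (limma adjusted p = 0.00129). These same 4 genes made up those that rose in norUDCA-fed CBDL against CBDL, at 1.18, 0.74, 0.57 and 0.59. Each of these 4 rises ended without CBDL_164 or norUDCA_CBDL_175 (adjusted p 0.0508 to 0.101 where a call ended), and those of Vil1 and Myo7b also without other arrays.

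Endosomal acidification is the work of the vacuolar proton pump and of chloride and sodium exchangers. Of 19 measured genes 10 fell and 1 rose after ligation (median -0.35). The pump subunit genes Atp6v1b2 and Atp6v1a fell by 0.61 (limma adjusted p = 0.00212) and 0.48 (limma adjusted p = 0.00341), and Clcn3, a relative of Clcn5, fell by 0.63 (limma adjusted p = 0.00473). After a second quantile normalization the difference of Atp6v1b2 was -0.37 (adjusted p = 0.0151), and that of Atp6v1a was -0.21 and did not pass (adjusted p = 0.0849). Atp6v0a4, Atp6v0d1, Atp6v1b1 and Atp6v1e1, also among the 10 that fell, did not pass there either (adjusted p 0.122 to 0.245). The falls of Atp6v0a4, Atp6v0d1, Atp6v1b1 and Slc9a3 ended without 4, 4, 7 and 3 arrays in turn (adjusted p up to 0.0944, 0.0737, 0.117 and 0.0638). The gene that rose was Atp6v0d2, by 0.55 (limma adjusted p = 0.00808), and it was also higher in norUDCA-fed CBDL than in sham by 0.65 (limma adjusted p = 0.019), which 4 of the 9 arrays, left out in turn, each brought above the threshold (adjusted p up to 0.091). In norUDCA-fed CBDL against CBDL, 3 rose: Atp6v0a4 by 0.71, Atp6v1b1 by 0.52, subunits abundant in intercalated cells of the collecting duct, and the sodium-proton exchanger gene Slc9a3 by 0.82. Their calls ended without 1, 4 and 7 of the 9 arrays in turn, with adjusted p up to 0.051, 0.0822 and 0.139.

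Coat and sorting genes, which serve endocytosis in every cell, went both ways, as did all genes, of which 21.8% were called after ligation. Of 18 clathrin coat and adaptor genes 3 rose and 2 fell after ligation (median 0.09), and 0 were called in norUDCA-fed CBDL against CBDL by limma. Gipc1, an adaptor that binds the tail of megalin, rose by 0.50 (limma adjusted p = 0.00441), and Numb, an endocytic adaptor, fell by 0.42 (limma adjusted p = 0.0107), but did not pass (adjusted p = 0.0576) when sham_159 and CBDL_165 were both left out. Ap2b1 at 0.53, Itsn1 at 0.39 and Epn1 at -0.33 lost their calls in 4, 7 and 7 of the 9 fits that leave out 1 array (adjusted p up to 0.0988, 0.115 and 0.075). Of 20 genes of endosomal sorting and recycling 1 rose and 3 fell (median -0.01). Rab38, a GTPase of vesicle traffic, fell by 0.66 (limma adjusted p = 0.00128), while the calls of Ehd1 at -0.44, Rab5c at -0.37 and Micall1 at 0.49 ended without 4, 8 and 7 arrays in turn (adjusted p up to 0.0653, 0.12 and 0.129).

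Of 11 other LDL receptor family members measured, 2 rose and 2 fell after ligation (median -0.02). Lrp1, a clearance receptor of macrophages, fibroblasts and many other cells, read 8.66 ± 0.10 in sham, 10.32 ± 0.15 in CBDL and 9.29 ± 0.13 on the norUDCA-fed arrays, a rise of 1.66 after ligation (SE 0.11, limma adjusted p = 2.98e-05). Lrp1 fell by 1.02 (SE 0.11, limma adjusted p = 0.00655) in norUDCA-fed CBDL against CBDL. The summed signals of macrophage markers (given above) and of 8 fibroblast markers (11.73 to 12.18 in sham, 13.44 to 13.66 in CBDL, 12.72 to 12.82 in norUDCA-fed CBDL) had the same order of groups, and their part was not tested. The reelin receptor gene Lrp8 rose by 0.86, and Vldlr at -0.44 and Lrp3 at -0.42 fell. Those 3 calls ended without 3, 4 and 1 arrays in turn (adjusted p up to 0.0627, 0.108 and 0.0593), the last without CBDL_164.

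Among 23 genes of cargo and its handling, 7 rose and 9 fell after ligation (median -0.20). Slc46a1, a proton-coupled folate transporter, fell by 1.25 (limma adjusted p = 0.000213), and Tcn2, which encodes the vitamin B12 carrier that megalin takes up, by 0.62 (limma adjusted p = 0.0046), or by 0.40 after a second quantile normalization (adjusted p = 0.0179). Apoe rose by 2.07 (limma adjusted p = 2.98e-05), Clu, which encodes the megalin ligand clusterin, by 1.40 (limma adjusted p = 3.39e-05) and the lysosomal protease gene Ctsd by 1.15 (limma adjusted p = 0.00019). The transcript of albumin (Alb), made mainly in the liver, fell by 1.52 (limma adjusted p = 0.000145). Its signal was low, at 7.06 in sham and 5.53 in CBDL, the latter below the array medians of 5.7 to 5.79. In norUDCA-fed CBDL against sham 3 of the 23 were called higher and 1 lower, against 1.82% and 1.37% of all genes. Apoe was higher by 1.7 (limma adjusted p = 0.000726), Clu by 1 (limma adjusted p = 0.00126) and Cyp27b1 by 1.56 (limma adjusted p = 0.0131). Alb differed by -0.91 (limma adjusted p = 0.0152). The calls of Cyp27b1 and Alb there ended without 2 and 3 arrays in turn (adjusted p up to 0.0702 and 0.0712). Slc46a1 rose by 0.80 in norUDCA-fed CBDL against CBDL and Ctsd fell by 0.64, calls that ended without CBDL_164 (adjusted p = 0.054, Slc46a1 only) or norUDCA_CBDL_175 (adjusted p = 0.0603 and 0.0693).

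Of 14 measured regulators and proteases 4 rose and 4 fell after ligation (median -0.13). Hnf4a, a transcription factor of the proximal tubule, read 11.75 ± 0.13 in sham, 11.07 ± 0.10 in CBDL and 11.60 ± 0.11 on the norUDCA-fed arrays and fell by 0.68 (SE 0.11, limma adjusted p = 0.00144). Hnf4g fell by 1.13, the retinoid receptor gene Rxra by 0.64 (limma adjusted p = 0.00112) and the vitamin D receptor gene Vdr by 0.45. The call of Hnf4g ended with unmoderated variances (adjusted p = 0.0501) and without the arrays sham_159 and CBDL_165 (adjusted p = 0.0906). A second quantile normalization gave -0.18 for Vdr, which did not pass (adjusted p = 0.202), and -0.42 for Hnf4a (adjusted p = 0.0167). The matrix metalloproteinase genes Mmp14 and Mmp2 rose by 2.96 and 2.88, Pparg, a nuclear receptor of adipocytes and other cells, by 1.24 and the surface protease gene Adam10 by 0.39, the last a call that ended when any of 8 arrays was left out (adjusted p up to 0.134). In norUDCA-fed CBDL against CBDL Mmp14 and Mmp2 fell by 1.52 and 1.99. Pparg at -1.16 and Hnf4a at 0.54 were also called there, each until 1 of 5 arrays was left out (adjusted p up to 0.0961 and 0.078). With unmoderated variances each pathway gene named here as called in norUDCA-fed CBDL against CBDL lost its call (adjusted p 0.0536 to 0.136).

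**Figure D5:**
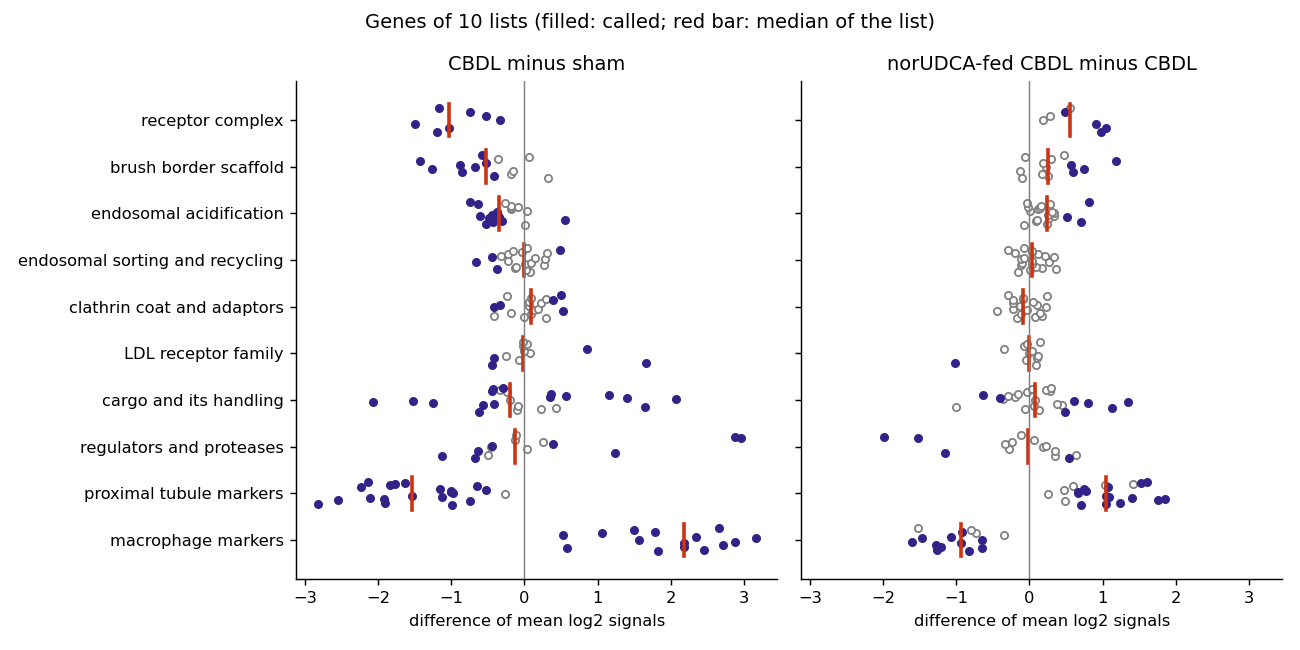
Difference of mean log2 signals (horizontal axis) of every measured gene of 10 lists in CBDL minus sham and in norUDCA-fed CBDL minus CBDL, with filled points for called genes and a red bar for the list median. The receptor genes (median -1.03) lie between the proximal tubule markers (-1.54) and the coat and sorting genes (0.09 and -0.01) in the first comparison.

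Markers of other segments and cell types were measured too. Of all genes 21.8% were called after ligation, 11.5% lower and 10.3% higher, beside which the counts here are to be read. After ligation 5 of 10 markers of thick limb and distal tubule fell, 2 of 10 collecting duct markers fell and 1 rose, and medians were -0.33 and -0.35. Of 7 podocyte markers 1 rose and 2 fell (median 0.21), and of 10 endothelial markers 1 fell (median 0.01). The podocyte gene Nphs1 fell by 0.40 (limma adjusted p = 0.0302) and the endothelial gene Kdr by 0.90 (limma adjusted p = 0.000872). Adipocyte markers had a median of 0.88 with 3 of 7 called, and their summed signal ran from 10.12 to 10.49 in sham and from 10.78 to 12.27 in CBDL. Of 9 lymphocyte markers 1 fell, and 3 (Cd2, Ms4a1 and Il7r) were in the dimmest 33.3% of genes, where signal above background is not shown. Of 6 liver markers 3 fell (median -0.72). Alb, Apoa2 and Serpina1a read 7.06, 5.84 and 5.85 in sham, while the summed signal of the 6 was 13.20 to 13.36 there. The other listed markers thus carried that sum, and whether the list measures liver transcript in these kidneys was not tested.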

How the data were processed

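The authors deposited log2 signals per transcript cluster, which the submitters' processing notes credit to RMA (background correction, quantile normalization and probe summary) in Partek 6.6, from TRIzol RNA labelled with a whole-transcript kit, per the labels' protocols. The array's genome build and any further filter or batch step are not given in the sources used here. Of 41345 rows, 23521 carry 1 gene symbol. The brightest row per gene over the 9 arrays was taken, which gave 22180 genes with no filter on low signal, and each of the 7 genes has 1 such row. Listed genes without one were not analysed here.

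Groups were compared with limma 3.58.1 in R 4.3.3, two-sided, with Benjamini-Hochberg adjustment over all genes. The fit had 1 mean per group, all 9 arrays and a moderated variance with 6 residual and 3.77 prior degrees of freedom. It was also run on simulated data with planted changes. There each gene had 1 SD in all groups, so the run does not cover genes with a larger spread in CBDL, such as Lrp2 and Cubn. An SD is over the 3 arrays of a group. A summed signal is the log2 of the sum of linear signals. The alternatives were an intensity trend, array weights, unmoderated variances, only the arrays compared, dropping the dimmest 33.3% of genes, a second quantile normalization, median centring, the mean of a gene's rows, leaving out each array in turn and, added after the data were seen, leaving out sham_159 and CBDL_165 together.

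The 7 genes and the lists were chosen with earlier results of these data known, so lists are described by counts and medians with no test. Named genes are the 7, up to 4 per pathway list with the lowest p in CBDL against sham and 2 in norUDCA-fed CBDL against CBDL, and the 5 nearest to Lrp2, Cubn and Dab2. Itsn1, Slc9a3, Tcn2, Hnf4g, Vdr, Pparg, Adam10, Atp6v0d1 and Atp6v1e1 were picked with their values in view. So were the comparisons of Vil1, Myo7b, Hnf4a, Slc46a1, Atp6v0a4 and Atp6v1b1 in which that rule does not take them. The values against sham in norUDCA-fed CBDL and the 5 motifs were also picked in that way.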

Additional observations from a re-analysis of the deposited data

How the results depend on the processing

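Over 18 alternatives each, 331 of 378 recomputed differences of the 7 genes kept their direction and their side of the threshold, 38 lost a call and 8 gained one. The 331 include differences that were not called at first and so had no call to lose. In norUDCA-fed CBDL against CBDL the calls of Lrp2, Cubn, Amn and Folr1 ended under 6, 7, 5 and 8 of the 18 alternatives. In CBDL against sham 6 of the 7 falls kept their call under every alternative, and only that of Dab2 did not. Cubn in norUDCA-fed CBDL against sham turned from 0.01 to -0.01 when arrays were centred on their median. Leaving out 1 array at a time gave 0 to 6 of the 7 genes called in norUDCA-fed CBDL against CBDL (278 to 2043 of all genes) and 0 to 1 in norUDCA-fed CBDL against sham (156 to 822 of all genes). In norUDCA-fed CBDL against CBDL, unmoderated variances gave 0 of the 7 and 25 of all genes, the 6 arrays compared alone gave 1 and 912, and leaving out sham_159 and CBDL_165 together gave 1 and 749. In norUDCA-fed CBDL against sham, array weights gave 1 of the 7 and 1638 of all genes, unmoderated variances 169 of all genes, and the 6 arrays alone 1 of the 7. Of the called pathway genes, 35 of 56, 3 of 19 and 3 of 7 kept their call without any 1 array in the 3 comparisons in the order used above. No paired analysis was possible because the groups share no replicate numbers.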
